A study of Mus musculus with 4 samples.

Results

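The Notch pathway genes described here are 10 genes chosen by symbol out of 56980 genes in the count tables. They are 3 receptors (Notch1, Notch2, Notch3), 3 ligands (Jag1, Jag2, Dll1), the DNA-binding partner of the activated receptor (Rbpj) and 3 transcriptional repressors that the pathway switches on (Hes1, Hey1, Heyl). A Notch receptor is activated when a ligand on a neighbouring cell pulls on it. Proteases then cut it, and its inner fragment enters the nucleus, where it joins Rbpj and a Mastermind-like protein to start transcription. In stratifying epidermis the pathway is known for its role in the step from basal to spinous cells, and in the hair follicle for its role in keeping cell layers distinct.

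Dorsal skin cells of mouse embryos labelled E16.5 had been sorted as Epcam+α6+ and profiled by droplet-based single-cell RNA-seq (10x Genomics 3′ chemistry), which counts unique molecular identifiers (UMIs). The study's text gives the same embryonic day as the labels, whereas its list of litters gives an earlier one for the single-cell litter. Ctrl embryos were homozygous for floxed (f/f) Suv39h1 and Setdb1, were Suv39h2-/- and lacked the Cre transgene (K14CreERT2-). TKO embryos differed from them by carrying the transgene (K14CreERT2+), and embryos of both groups had been exposed to Tamoxifen. The groups therefore shared the Suv39h2 deletion and the drug, and the comparison is that of removing Suv39h1 and Setdb1 from keratinocytes that lack Suv39h2. Per the study's methods each of the 2 libraries per genotype came from 1 embryo, and recombination was incomplete, so that TKO libraries held a mixture of recombined and unrecombined cells. The K14 promoter, that of a basal keratin, drives the Cre. Nothing in the labels pairs the embryos across genotypes, and p-values measure the spread between 2 embryos per genotype. Per the study's methods both sexes were present in each group of its sequencing experiments. The labels do not give the sex of an embryo, and the part of sex in that spread was not tested.

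Of 19789 barcodes, 11221 passed the filters, 457 of these were left out as likely doublets, and 9192 were keratinocytes. Clustering without the genes that differed between genotypes and without all Notch pathway genes gave 4739 basal-like cells, 561 early suprabasal-like cells (Krt1 and Krt10 beside Krt5 and Krt14 that were still high), 1454 spinous-like cells and 2322 hair follicle-like cells. All 7 basal, all 6 early suprabasal, all 9 spinous and all 9 hair follicle markers reached a mean of 5 CPM in their class. That level does not separate the classes, since all 7 basal and all 6 early suprabasal markers reached it in all 4 classes. Krt5 and Krt14 had higher means in early suprabasal-like cells (6037.5 and 8851 CPM) than in basal-like cells (4440 and 8112 CPM). For each library the UMIs of all cells in 1 class were added up, and these totals held between 2745600 and 30918361 UMIs. Levels are given as CPM, UMIs per 1000000 UMIs of the total. The libraries shared 39 barcodes in all. The median UMI count per cell was higher in both TKO libraries than in both Ctrl libraries in all 4 classes (30260.5 and 27689 against 20826.5 and 17260 in basal-like cells). Of the 929 cells of one basal-like cluster led by the stress and inflammation genes Cxcl10, Cxcl1 and Atf3, 51.1% came from Ctrl 2. Setdb1, one of the targeted genes, was at 72.6 and 58.8 CPM in basal-like cells of the Ctrl libraries and at 40.0 and 44.3 CPM in the TKO libraries. It was lower in both TKO libraries in all 4 classes, and edgeR's quasi-likelihood test called it in basal-like (log2 change -0.63, adjusted p = 0.0342) and hair follicle-like cells (-0.65, adjusted p = 0.0206). Suv39h1 overlapped between the genotypes in basal-like cells (32.0 and 29.3 against 29.4 and 24.5 CPM) and was lower in both TKO libraries in hair follicle-like cells (28.9 and 28.5 against 20.6 and 21.8 CPM), without passing the test (adjusted p = 0.0697). Suv39h2, deleted in all embryos, was still at 16.52 to 24.81 CPM in basal-like cells. Tags of the 3′ end need not lie in a deleted part, and where they lie was not tested, so a level that stays does not go against the labels.

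Promoter windows are shown first so that the regulatory sequence can be read beside the values. They are those of Notch1 and Notch3, the 2 members called between genotypes, and of Rbpj, the only one with an RBPJ core motif. The 2 calls were made in hair follicle-like cells alone and not under every clustering. Each window runs from 250 bases before the start site of the gene to 50 bases after it, read along the gene's strand, from RefSeq on GRCm38.p6. RefSeq windows were at hand for 7 of the 10 members (9 windows in all), and none for Hes1, Hey1 and Heyl. Capitals mark TGGGAA or its complement on the other strand, TTCCCA, the core that Rbpj is known to bind.

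Notch1, chr2:26503773-26504072, minus strand: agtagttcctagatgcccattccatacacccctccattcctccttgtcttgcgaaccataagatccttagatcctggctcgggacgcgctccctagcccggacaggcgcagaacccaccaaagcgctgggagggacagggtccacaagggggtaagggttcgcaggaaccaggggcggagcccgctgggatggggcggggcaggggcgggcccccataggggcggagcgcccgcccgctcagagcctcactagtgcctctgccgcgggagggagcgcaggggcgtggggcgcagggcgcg

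Notch3, chr17:32166841-32167140, minus strand: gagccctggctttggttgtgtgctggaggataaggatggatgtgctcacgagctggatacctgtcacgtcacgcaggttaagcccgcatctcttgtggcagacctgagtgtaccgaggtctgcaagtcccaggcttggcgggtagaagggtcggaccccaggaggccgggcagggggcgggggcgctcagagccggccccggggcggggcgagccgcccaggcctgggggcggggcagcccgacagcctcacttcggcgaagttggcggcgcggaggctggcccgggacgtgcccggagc

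Rbpj, chr5:53590096-53590395, plus strand: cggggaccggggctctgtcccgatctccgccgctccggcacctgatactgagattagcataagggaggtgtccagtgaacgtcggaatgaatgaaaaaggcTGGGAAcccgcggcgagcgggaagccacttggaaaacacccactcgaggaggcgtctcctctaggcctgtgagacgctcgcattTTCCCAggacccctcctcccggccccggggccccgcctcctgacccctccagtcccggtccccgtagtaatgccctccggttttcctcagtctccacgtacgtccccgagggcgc

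The core was present in 2 of the 9 member windows, both of them overlapping windows of Rbpj, beside 25.6% of all 32851 windows of the same length. The windows of Notch1, Notch2, Notch3, Jag1, Jag2 and Dll1 held none of these letters, which says nothing of sites elsewhere. All were GC-rich, from 55.7% in Jag1 to 86.0% in Jag2, and they held 15 to 63 CpG dinucleotides against a median of 7 over all windows.

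On GRCm39, the build of the count tables, the genes lie on 7 chromosomes: Notch1 at chr2:26347915-26406675 and Jag1 at chr2:136923373-136958693, Notch2 at chr3:97920800-98057677 and Hey1 at chr3:8726956-8732385, Heyl at chr4:123127349-123143682, Rbpj at chr5:53623494-53814704, Jag2 at chr12:112871421-112893437, Hes1 at chr16:29882134-29886643, and Notch3 at chr17:32339794-32385893 and Dll1 at chr17:15587276-15597134. In the GENCODE vM39 annotation, exons of Notch2 and Jag2 overlap a transcript on the same strand (Gm42820 and Mir6941) and can share reads with it, while exons of Notch1, Notch3, Jag1, Dll1, Hes1 and Hey1 overlap genes on the other strand.

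The receptors differed in where along the differentiation path they were high. Class-to-class differences are given as descriptions, since the classes were defined from the same cells. Notch1, the main receptor of the epidermis, peaked in early suprabasal-like cells at 533, 598, 664 and 536 CPM in Ctrl 1, Ctrl 2, TKO 1 and TKO 2. It stood at 244, 235, 232 and 253 CPM in basal-like cells, at 170, 205, 320 and 214 CPM in spinous-like cells and at 160, 131, 227 and 205 CPM in hair follicle-like cells. All 4 libraries thus had more than 500 CPM in the early suprabasal-like class only, the mean being 2.42 times that of basal-like cells, and the other 3 classes overlapped with their neighbours in the order.

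**Figure D1:**
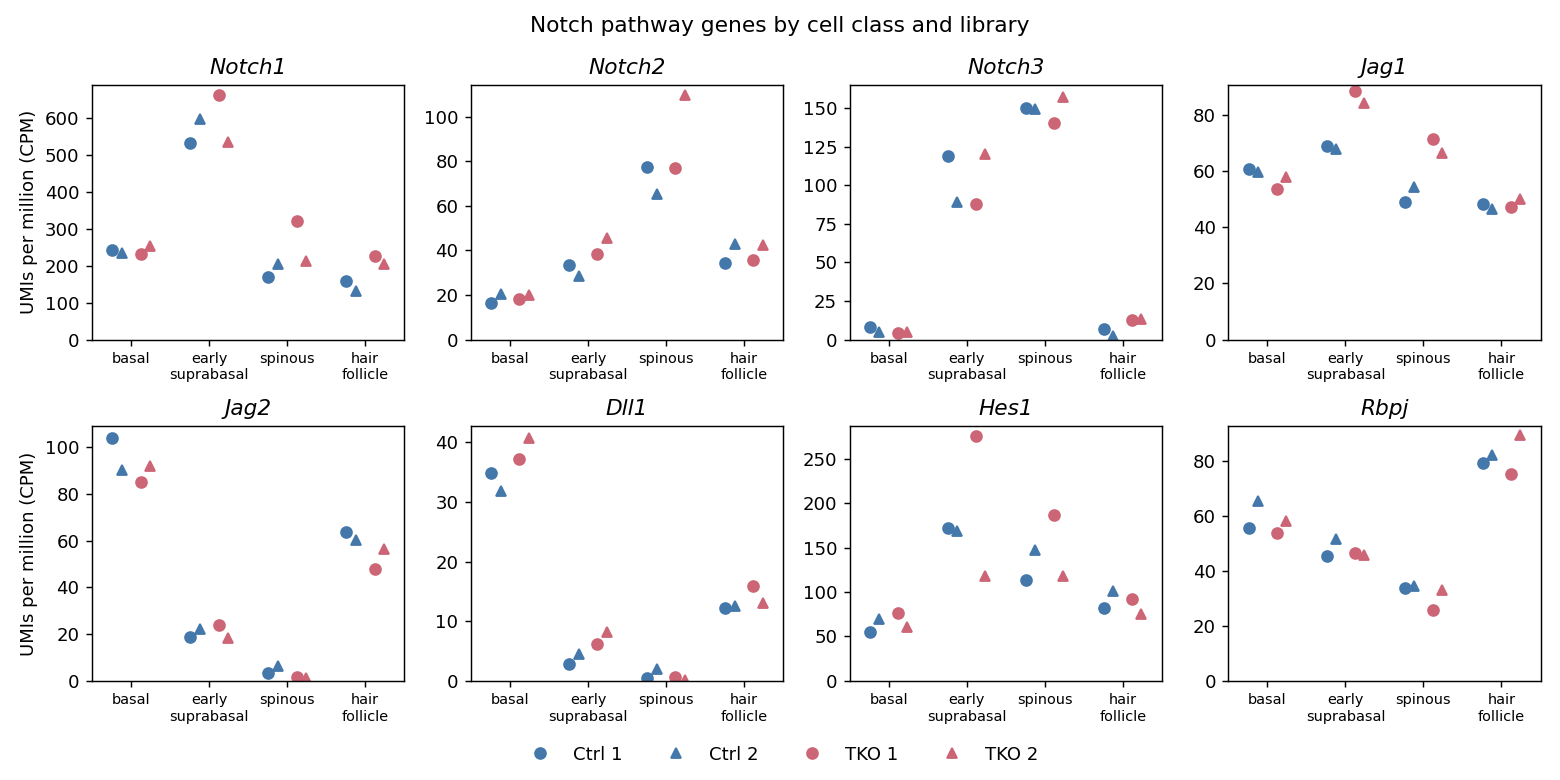
Level of 8 Notch pathway genes (y axes, CPM, linear from 0) in the 4 cell classes (x axes); each point is 1 library (blue Ctrl, red TKO; circle replicate 1, triangle replicate 2). Notch3 was high in early suprabasal-like and spinous-like cells, Jag2 and Dll1 were high in basal-like cells, and Notch1 was highest in early suprabasal-like cells; Hey1 and Heyl, with at most 16 UMIs in any sum, are not drawn.

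Notch3, a receptor known from suprabasal epidermis and from vessel wall cells, was low in basal-like cells, at 7.88, 4.72, 4.14 and 4.58 CPM. It reached 119, 89.2, 87.8 and 121 CPM in early suprabasal-like cells and 150, 149, 140 and 157 CPM in spinous-like cells. The rise was 19.5 times and 28.0 times the basal-like mean, and neither suprabasal class overlapped with basal-like cells. Notch3 was barred from the clustering, yet it was among the 10 leading genes of cluster 12, one of the 2 early suprabasal-like clusters. With every cell thinned to 5000 UMIs, the share of spinous-like cells with a Notch3 UMI was 52.5%, 52.2%, 53.5% and 52.9% (exact 95% binomial intervals 48.4% to 56.6%, 47.1% to 57.4%, 45.4% to 61.5% and 47.2% to 58.5%, which cover counting error only). In immune-like cells of the same libraries, which should lack the gene, the share was 1.22%, 0%, 0.353% and 0.478%, the 0 of 124 cells allowing a share of up to 2.42% (3 counts). The median depths were 28317, 22435, 35762 and 34874 UMIs in the spinous-like cells against 19063, 14454, 20136.5 and 19407 in the immune-like cells, and the unthinned shares were 96.5%, 92.2%, 94.3% and 95.8% against 3.66%, 0.8%, 1.41% and 1.89%.

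Notch2, the remaining receptor, also rose along this path, from 16.6, 20.3, 18.1 and 19.9 CPM in basal-like cells through 33.7, 28.5, 38.2 and 45.5 CPM in early suprabasal-like cells to 77.4, 65.3, 76.8 and 110 CPM in spinous-like cells. In hair follicle-like cells it was at 34.5, 42.9, 35.9 and 42.5 CPM, which overlapped with the early suprabasal-like values. Its spinous-like mean was 4.4 times the basal-like mean, with no overlap between those classes.

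The ligands Jag2 and Dll1 ran the opposite way. Jag2, a ligand of the Jagged group, was at 104, 90.1, 85.0 and 92.0 CPM in basal-like cells and at 63.9, 60.2, 47.8 and 56.5 CPM in hair follicle-like cells. It dropped to 18.6, 22.0, 24.04 and 18.3 CPM in early suprabasal-like cells and to 3.20, 6.17, 1.73 and 1.40 CPM in spinous-like cells, with no overlap between any of the 4 classes. At 5000 UMIs per cell the share of spinous-like cells with a Jag2 UMI was 1.67%, 2.64%, 0.637% and 0.641% against 2.44%, 1.61%, 0% and 0.718% in immune-like cells, the limit of 3 counts in 283 cells being 1.06% where 0 was found. The spinous-like share was above the immune-like share of its own library in Ctrl 2 and TKO 1 and below it in Ctrl 1 and TKO 2. Unthinned, these shares were 6.51%, 9.59%, 5.73% and 3.85% against 8.54%, 6.40%, 3.87% and 2.83%.

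Dll1, a Delta-like ligand, was at 34.9, 31.9, 37.3 and 40.7 CPM in basal-like cells and at 12.2, 12.6, 15.98 and 13.01 CPM in hair follicle-like cells. Early suprabasal-like cells had 14, 17, 17 and 28 UMIs of it (2.77, 4.44, 6.19 and 8.11 CPM) and spinous-like cells 9, 18, 4 and 1 UMIs. Its 4 classes did not overlap either, and the spinous-like mean was 0.0232 of the basal-like mean. The spinous-like values were 0.523, 2.06, 0.693 and 0.0935 CPM, and those of immune-like cells 1.68, 0.958, 0.161 and 0 CPM. That ratio therefore rests on levels that immune-like cells also showed.

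Jag1, the other Jagged ligand, had no such gradient. It was at 60.7, 59.6, 53.5 and 57.9 CPM in basal-like cells, at 68.9, 68.0, 88.5 and 84.3 CPM in early suprabasal-like cells, at 49.0, 54.1, 71.2 and 66.6 CPM in spinous-like cells and at 48.2, 46.6, 47.3 and 49.99 CPM in hair follicle-like cells. The means of the highest and lowest class were 77.4 and 48.0 CPM, and neighbours in the order overlapped except for basal-like and hair follicle-like cells.

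Rbpj, the transcription factor through which all receptors act, was at 79.2, 82.3, 75.3 and 89.6 CPM in hair follicle-like cells and at 55.9, 65.6, 53.7 and 58.4 CPM in basal-like cells. It fell further to 45.5, 51.5, 46.6 and 45.8 CPM in early suprabasal-like cells and to 33.8, 34.4, 25.8 and 33.3 CPM in spinous-like cells. The order held in each library, the spinous-like mean being 0.545 of the basal-like mean.

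Of the 3 target genes, Hes1 was the only one with enough UMIs to be tested in all 4 classes. It was at 55.1, 69.7, 76.1 and 60.6 CPM in basal-like cells, at 173, 169, 276 and 118 CPM in early suprabasal-like cells, at 113, 147, 187 and 118 CPM in spinous-like cells and at 81.9, 101, 92.1 and 74.9 CPM in hair follicle-like cells. Both suprabasal classes lay above the other classes in each library, and TKO 1 stood above the other libraries in both suprabasal classes. Hey1 had 16, 13, 11 and 6 UMIs in basal-like cells, 15, 8, 9 and 4 in hair follicle-like cells and at most 2 in any other sum. Heyl had at most 4 UMIs in any sum. In 66 cells that were left out, of a cluster led by Fabp4, Erbb4 and Psca with near-equal pericyte and muscle marker scores (5.23 and 5.16), Heyl had 3, 4, 18 and 13 UMIs (19.7 to 46.6 CPM) and Hey1 7, 3, 10 and 9 UMIs, so both genes could be counted in these libraries where cells expressed them.

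The genes whose pattern was most like that of a member were found by Pearson's r of log2(CPM + 1) over the 16 class-by-library sums, which share cells, depth and class, among 8987 genes with a mean of at least 10 CPM. For Notch3 they were Foxn1 (r = 0.98), Zfp750 (0.98) and Ssx2ip (0.97), the first of them a transcription factor of the hair and suprabasal epidermis and the second a regulator of terminal epidermal differentiation. For Jag2 they were Itga3 (0.99), an integrin of basal cells, Bmpr1b (0.99), a BMP receptor, and Tjap1 (0.99). For Hes1 they were Grhl3 (0.92), a transcription factor of barrier formation, Timm29 (0.90) and Trmt10c (0.89).

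The genotype comparison used edgeR's quasi-likelihood test on the sums, fitted over all genes that passed the expression filter, and a gene counts as called where its p, adjusted by Benjamini-Hochberg, was under 0.05. No member was called in basal-like cells (0 of 9 tested, against 12.1% of 17364 genes), in early suprabasal-like cells (0 of 8, against 3.03% of 11770 genes) or in spinous-like cells (0 of 7, against 2.09% of 13368 genes). In basal-like and early suprabasal-like cells 0 members had an unadjusted p under 0.05 and in spinous-like cells 2 did (Jag1 and Jag2), and DESeq2 called 0 members in each of these classes. In hair follicle-like cells 2 of 9 tested members were called, both higher in TKO, against 14.4% of 16349 genes. Heyl passed the filter in no class, Hey1 only in basal-like and hair follicle-like cells, and Dll1 in all but spinous-like cells. The median log2 change of the tested members was -0.11, 0.09, 0.14 and 0.06 in basal-like, early suprabasal-like, spinous-like and hair follicle-like cells, and that of all genes tested -0.02, -0.00091, -0.0027 and -0.01.

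**Figure D2:**
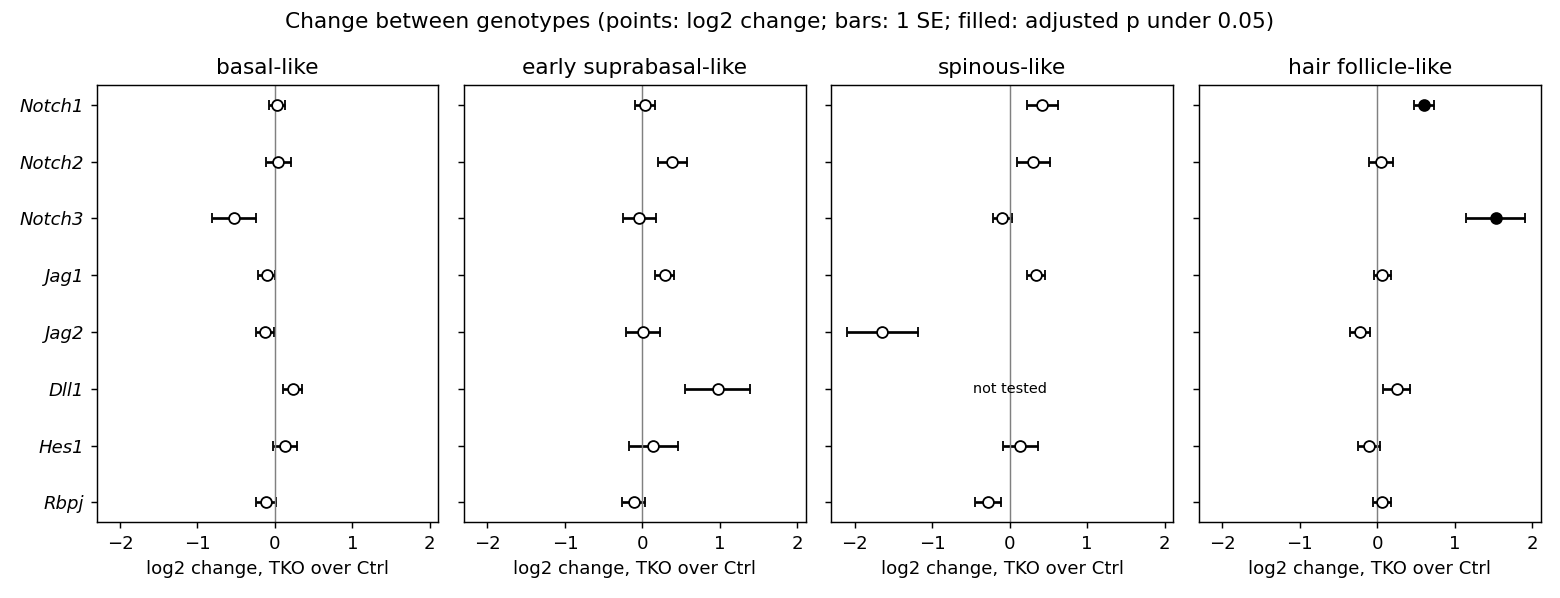
Log2 change of TKO over Ctrl (x axes) for 8 Notch pathway genes (y axis) in each class; points are the edgeR estimates, bars 1 SE, and filled points an adjusted p under 0.05 over all genes. Only Notch1 and Notch3 in hair follicle-like cells are filled, and the large open value of Jag2 in spinous-like cells rests on sums of 10 to 55 UMIs.

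In basal-like cells the receptor Notch1 differed by 0.02 on the log2 scale (SE 0.11, adjusted p = 0.907), with overlapping libraries. Notch3 was lower in both TKO libraries than in both Ctrl libraries by a log2 change of -0.53 (SE 0.29, adjusted p = 0.279), which did not pass the test. The direction turned under 3 other clusterings, to 0.485 (adjusted p = 0.207) with uncorrected principal components, 0.23 (adjusted p = 0.708) at a Leiden resolution of 2 and 0.32 (adjusted p = 0.506) with changed and pathway genes kept. The value was -0.17 (adjusted p = 0.729) without the clusters whose cells had a median under 10000 UMIs, a choice made after the values were seen. One of them, cluster 14, held 237 basal-like cells (123, 50, 41 and 23 in Ctrl 1, Ctrl 2, TKO 1 and TKO 2) and had Notch3 at 58.8, 56.5, 10.3 and 6.01 CPM. The ligands Jag2 and Dll1 changed by -0.13 (SE 0.12, adjusted p = 0.521) and 0.23 (SE 0.12, adjusted p = 0.268), and Rbpj by -0.11 (SE 0.13, adjusted p = 0.613). Hes1 differed by 0.13 (SE 0.15, adjusted p = 0.618). Hey1, with the few UMIs given above, was lower in both TKO libraries by a log2 change of -0.72 (SE 0.47, adjusted p = 0.369), which did not pass the test.

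In early suprabasal-like cells, the class where Notch1 and Hes1 were highest, the log2 changes were 0.04 for Notch1 (SE 0.13, adjusted p = 0.925), -0.04 for Notch3 (SE 0.21, adjusted p = 0.949) and 0.14 for Hes1 (SE 0.31, adjusted p = 0.860). For Hes1 the 2 TKO libraries lay on either side of both Ctrl libraries. Notch2 and Jag1 were higher in both TKO libraries, by 0.39 (SE 0.19, adjusted p = 0.327) and 0.29 (SE 0.13, adjusted p = 0.269), which did not pass the test. Dll1 changed by 0.97 (SE 0.42, adjusted p = 0.269) on 76 UMIs in all. The SEs leave room for changes of a size that 2 libraries per genotype could not separate from the spread. Of this class, cluster 15 held 29.85% and 34.22% in Ctrl and 51.39% and 43.56% in TKO, and cluster 12 the rest. The part of these shares in the values was not tested.

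In spinous-like cells Notch3, at its highest level there, changed by -0.09 (SE 0.12, adjusted p = 0.750), and its libraries overlapped. Notch1 was higher in both TKO libraries by 0.42 (SE 0.20, adjusted p = 0.349), most of it in TKO 1. Jag1 was higher in both by 0.33 (SE 0.12, adjusted p = 0.217). Jag2 was lower in both by -1.65 (SE 0.46, adjusted p = 0.142), on 55 and 54 UMIs in the Ctrl and 10 and 15 in the TKO libraries. The shares of cells with a Jag2 UMI given above lay on both sides of those in immune-like cells, and no change is read from them. The summed level of the 7 basal markers in the same cells was 3038, 6671, 3456 and 4491 CPM. The summed level of the 9 spinous markers there was 64519, 61190, 33323 and 48474 CPM. The part of these markers in the Jag2 value was not tested.

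In hair follicle-like cells Notch1 was at 160 and 131 CPM in the Ctrl libraries and at 227 and 205 CPM in the TKO libraries. The change was 1.52-fold (log2 0.605, SE 0.125, adjusted p = 0.0191), and the groups did not overlap. Notch3 was at 6.63 and 2.60 CPM (101 and 40 UMIs) in Ctrl and at 12.6 and 13.6 CPM (158 and 185 UMIs) in TKO, a 2.89-fold difference (log2 1.53, SE 0.38, adjusted p = 0.0359). At 5000 UMIs per cell, 2.59% and 0.980% of Ctrl cells and 6.04% and 5.81% of TKO cells had a Notch3 UMI (exact 95% intervals 1.49% to 4.18%, 0.424% to 1.92%, 3.86% to 8.92% and 3.89% to 8.29%), and 7.87%, 3.49%, 14.7% and 13.6% did so unthinned. The Ctrl 2 share lay within the range of the immune-like cells.

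The largest differences of both receptors were in 1 of the 5 hair follicle-like clusters. Cluster 7 held 549 of the 2322 cells (23.0%, 23.2%, 26.5% and 23.0% of the class in Ctrl 1, Ctrl 2, TKO 1 and TKO 2), and its leading genes were Zfpm2, Plcl1, 1700030N03Rik, Pthlh, a follicle gene, Krt79, a keratin of the upper follicle, Acta2, Tgfb2, Penk, Tagln and Col25a1. In the first clustering, which still held the genes that changed between genotypes, the cluster led by 1700030N03Rik, Tagln and Acta2, with Krt79 also among its leading genes, held 122 and 121 cells in Ctrl and 271 and 205 in TKO. Its early suprabasal marker score was 1.61, its basal score 1.16, its spinous score 1.12 and its hair follicle score 1.09. Each score is a mean log2 fold over the median cluster of the same clustering, and the first clustering also held other cell types. These scores are therefore not on the scale of the threshold of 1.2, which gave hair follicle-like names in the later clustering of keratinocytes alone. The study reports TKO-specific clusters from its E16.5 single-cell data, named aberrant basal and aberrant differentiating, which co-expressed markers of distinct epidermal subtypes. No separate class was formed for such cells here, and which classes hold them was not tested. Whether cluster 7 holds the same kind of cells in both genotypes was not tested either. Among the hair follicle-like clusters, the others had hair follicle marker scores of 2.65 to 3.72. Cluster 7, at 1.35, was the nearest to the threshold of 1.2. In it Notch1 was at 226 and 193 CPM in Ctrl and at 440 and 436 CPM in TKO, and Notch3 at 24.2 and 2.71 CPM (71 and 8 UMIs) in Ctrl and at 40.6 and 58.8 CPM (121 and 161 UMIs) in TKO. In the other 4 clusters Notch3 stayed between 1.04 and 4.93 CPM in every library (3 to 11 UMIs). Notch1 overlapped between the genotypes in 2 of those 4, was higher in both TKO libraries in cluster 11 and lower in both in cluster 13.

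**Figure D3:**
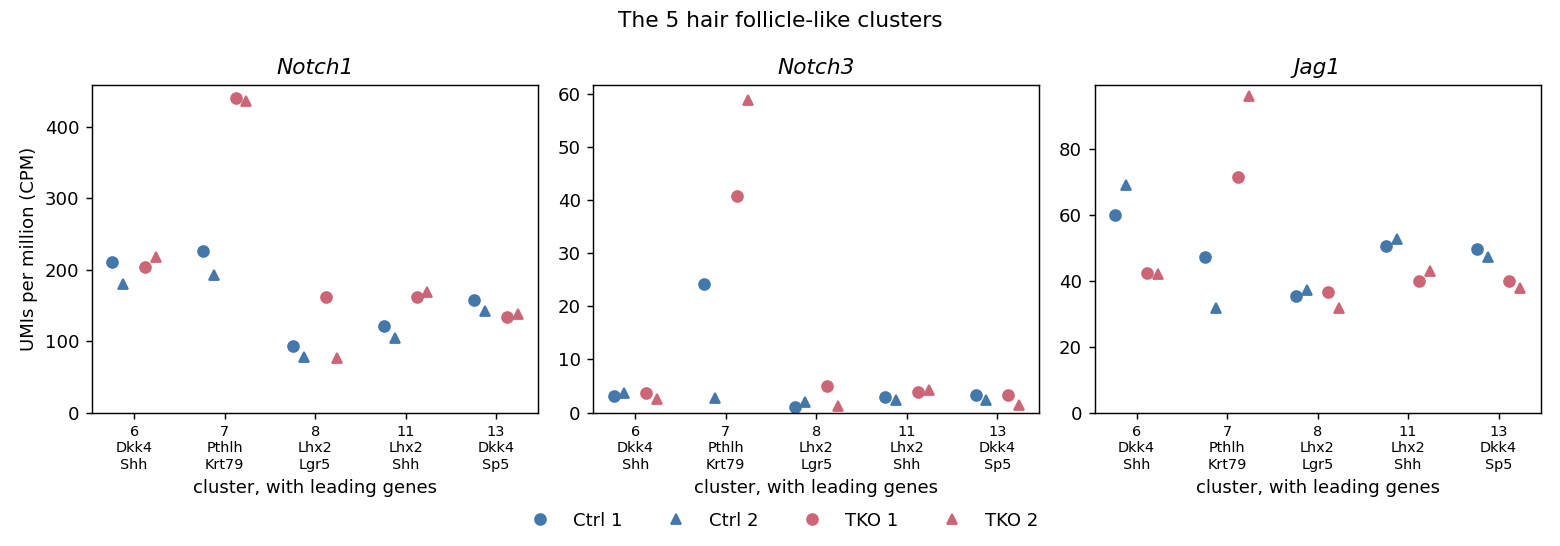
Level of Notch1, Notch3 and Jag1 (y axes, CPM) in each library in the 5 hair follicle-like clusters (x axes, numbered and named by 2 of their leading genes); blue points are Ctrl, red points TKO. In cluster 7 all 3 genes were higher in both TKO libraries, and Notch3 stayed under 5 CPM in the other clusters. Cluster 7 is labelled with Pthlh and Krt79, although Krt79 was lower there in both TKO libraries than in both Ctrl libraries.

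The 2 calls were not made with uncorrected principal components (Notch1 0.33, adjusted p = 0.264; Notch3 0.14, adjusted p = 0.891), at a Leiden resolution of 2 (0.45, adjusted p = 0.089; 0.63, adjusted p = 0.244) or with changed and pathway genes kept in the clustering (0.27, adjusted p = 0.189; 0.24, adjusted p = 0.650). Without cluster 7, a choice made after these values were seen, neither member was called: Notch1 changed by 0.29 (adjusted p = 0.192) and Notch3 by 0.31 (adjusted p = 0.642) on the log2 scale. Without Ctrl 2, Notch1 changed by 0.45 (adjusted p = 0.123), and without Ctrl 1 the Notch3 value was 2.36 (adjusted p = 0.000696), against 0.99 (adjusted p = 0.0453) without Ctrl 2. Krt79 in cluster 7 was at 152 and 187 CPM in Ctrl and at 0 and 48.2 CPM in TKO, and the suprabasal keratin Krt1 was at 641, 134, 16.8 and 364 CPM. Over the whole class, the summed level of the 9 hair follicle markers was 1178, 1329, 800 and 1195 CPM, that of the 8 Merkel markers 30.1, 36.2, 6.52 and 3.46 CPM and that of the 6 immune markers 10.6, 13.1, 24.5 and 27.2 CPM. Single hair follicle markers ran in different directions under that sum (not tested here): Pthlh was at 101 and 169 CPM in Ctrl and at 22.9 and 24.99 CPM in TKO and Sox9 at 156 and 225 against 44.0 and 65.1 CPM, while Dkk4 was at 56.9 and 56.3 against 111 and 137 CPM and Sp5 at 23.0 and 26.5 against 68.8 and 89.0 CPM. Their part in the result was not tested.

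Jag1 went different ways in these clusters. It was at 47.3 and 31.8 CPM in Ctrl and at 71.6 and 96.3 CPM in TKO in cluster 7, but in clusters 6, 11 and 13 it was lower in both TKO libraries (42.5 and 42.2 against 60.1 and 69.2 CPM in cluster 6). Over the class its change was 0.07 (SE 0.11, adjusted p = 0.725), and without cluster 7 it was -0.29 (adjusted p = 0.143). Jag2 changed by -0.22 (SE 0.12, adjusted p = 0.283), Hes1 by -0.10 (SE 0.14, adjusted p = 0.682) and Rbpj by 0.06 (SE 0.12, adjusted p = 0.778). The change of Hey1 was -0.56 (SE 0.62, adjusted p = 0.602), with overlapping libraries of 4 to 15 UMIs.

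Notch3 and Heyl are also known from pericytes, cells of the vessel wall. Of the 5 pericyte markers, Rgs5, Pdgfrb, Abcc9 and Kcnj8 were each under 0.6 CPM in hair follicle-like cells of every library. Acta2, the fifth, was at 0.0657 and 0.260 CPM in Ctrl and at 127 and 11.2 CPM in TKO, so that the summed level of the list was 0.854, 0.911, 128 and 11.8 CPM. Acta2 is the smooth muscle actin and was also among the leading genes of clusters 7 and 13. In basal-like, early suprabasal-like and spinous-like cells the 5 markers summed to at most 11.4 CPM.

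Whether the genotype effect differed between classes was tested with a class-by-genotype term. In the early suprabasal-like against the basal-like class 0 of 8 tested members differed (0.0171% of 17561 genes did), with 1 member, Jag1, at an unadjusted p under 0.05 and 0 called by DESeq2. In the spinous-like against the basal-like class 1 of 8 differed (6.34% of genes did): the effect on Jag1 was higher by 0.46 on the log2 scale in spinous-like cells (SE 0.11, adjusted p = 0.0306). That of Jag2 was lower by a log2 value of -1.45 (SE 0.41, adjusted p = 0.0545), which was not called. The shares of spinous-like cells with a Jag2 UMI lay on both sides of those in immune-like cells, so no difference is read from this value. In the hair follicle-like against the basal-like class 1 of 8 differed (0.985% of genes did), namely Notch3, by 2.07 (SE 0.32, adjusted p = 0.00983), and without cluster 7 that value was 0.82 (adjusted p = 0.630). It was also not called with uncorrected principal components (-0.36, adjusted p = 0.747), at a Leiden resolution of 2 (0.37, adjusted p = 0.913) or with changed and pathway genes kept in the clustering (-0.14, adjusted p = 0.986). Leaving out any 1 of the 4 libraries ended the Jag1 call, with 0.35 to 0.50 as the range of values (adjusted p 0.0759 to 0.336). Leaving out Ctrl 2 ended the Notch3 call (1.86, adjusted p = 0.0711), and without the other libraries it was 2.06 to 2.48.

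Around the members, 55 other genes of the pathway were followed, from a list of receptors and ligands, sugar transferases, proteases, genes of endocytosis and turnover, nuclear cofactors and targets. Of these, 5 of 47 tested were called in basal-like cells (1 higher, 4 lower), 1 of 39 in early suprabasal-like cells (lower), 1 of 40 in spinous-like cells (lower) and 6 of 46 in hair follicle-like cells (1 higher, 5 lower), beside the 12.1%, 3.03%, 2.09% and 14.4% of all genes. Their median log2 change was -0.13, -0.07, -0.10 and -0.13 in these classes. None of the glycosylation genes (4, 4, 3 and 4 tested in the classes in this order) and none of the proteases that cut the receptor (9, 7, 9 and 9 tested) was called.

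Of the 13 nuclear cofactors, 2 were called in any class, Maml2 and Maml3, Mastermind-like proteins that join the receptor fragment and Rbpj on DNA. Each class had 1 call among 13, where 12.1%, 3.03%, 2.09% and 14.4% of all genes were called (classes in the order above). Maml2 was at 254 and 265 CPM in Ctrl and at 125 and 154 CPM in TKO spinous-like cells (log2 change -0.98, SE 0.15, adjusted p = 0.0424), and at 334 and 356 against 233 and 238 CPM in early suprabasal-like cells (-0.60, SE 0.12, adjusted p = 0.0424). In basal-like and hair follicle-like cells it was below both Ctrl libraries as well but was not called (adjusted p = 0.0637 and 0.0949). Maml3 was at 565 and 508 CPM in Ctrl and at 321 and 390 CPM in TKO basal-like cells (-0.59, SE 0.14, adjusted p = 0.0419), and at 706 and 681 against 406 and 521 CPM in hair follicle-like cells (-0.55, SE 0.14, adjusted p = 0.0356). In early suprabasal-like and spinous-like cells Maml3 was not called (-0.33, adjusted p = 0.290, and -0.17, adjusted p = 0.663), and in the latter the genotypes overlapped. The effect on Maml2 was lower in spinous-like than in basal-like cells by a log2 value of -0.57 (SE 0.11, adjusted p = 0.00946), while that on Maml3 was higher there by 0.44 (SE 0.10, adjusted p = 0.0200).

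**Figure D4:**
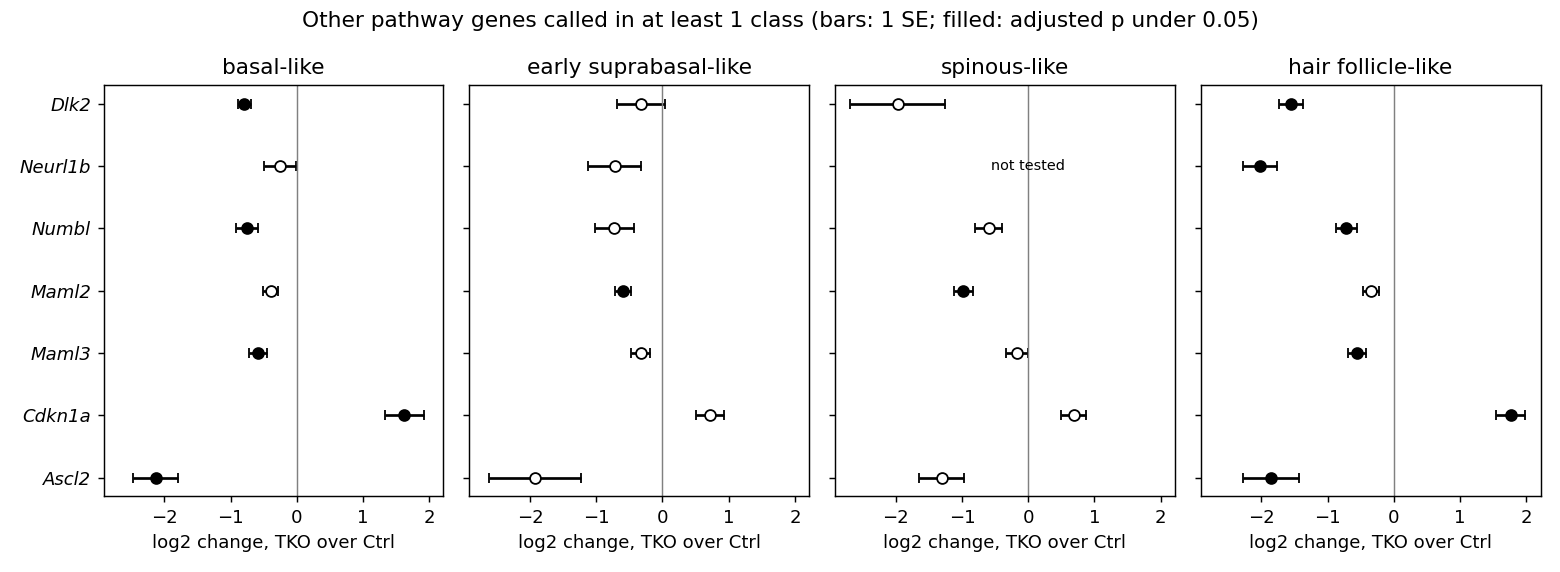
Log2 change of TKO over Ctrl (x axes) for the 7 other pathway genes called in at least 1 class (y axis); points are edgeR estimates, bars 1 SE, filled points an adjusted p under 0.05. Cdkn1a lies above 0 and the other 6 genes lie below 0 in every class in which they were tested.

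Of the genes of endocytosis and turnover, 1 of 12 tested was called in basal-like cells and 2 of 11 in the hair follicle-like class. Among the other receptors and ligands 1 of 3 was called in each of these classes. Over all genes 12.1% and 14.4% were called in these classes. Numbl, which like its relative Numb is known to restrain the receptor, was at 15.2 and 16.9 CPM in Ctrl and at 10.8 and 8.23 CPM in TKO basal-like cells (log2 change -0.75, SE 0.17, adjusted p = 0.0368), and at 17.0 and 17.3 against 11.1 and 9.34 CPM in hair follicle-like cells (-0.71, SE 0.17, adjusted p = 0.0286). Dlk2, a Delta-like protein held to compete with the ligands, was at 63.3 and 61.8 CPM in Ctrl and at 37.2 and 35.0 CPM in TKO basal-like cells (-0.79, SE 0.10, adjusted p = 0.00757). In hair follicle-like cells it was at 15.4 and 16.8 against 5.41 and 5.37 CPM (-1.55, SE 0.18, adjusted p = 0.00223). Neurl1b, a ubiquitin ligase of ligand uptake, was at 17.9 and 17.0 CPM in Ctrl and at 3.10 and 5.29 CPM in TKO hair follicle-like cells (-2.02, SE 0.26, adjusted p = 0.00335), and the effect was lower there than in basal-like cells by a log2 value of -1.77 (SE 0.35, adjusted p = 0.0357).

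Among genes listed as targets or feedback, Cdkn1a, a cell cycle inhibitor that answers to several pathways besides Notch, was at 20.4 and 38.6 CPM in Ctrl and at 105 and 77.0 CPM in TKO basal-like cells (log2 change 1.62, SE 0.29, adjusted p = 0.0201), and at 42.9 and 61.4 against 206 and 142 CPM in hair follicle-like cells (1.76, SE 0.22, adjusted p = 0.00294). Ascl2, a transcription factor, fell by 2.13 (SE 0.34, adjusted p = 0.0146) in basal-like and by 1.85 (SE 0.42, adjusted p = 0.0273) in hair follicle-like cells, on 65 and 58 against 17 and 10 UMIs in the former. Nrarp, a feedback inhibitor that is named here after its values were seen, was higher in both TKO libraries in 3 classes, for instance at 254 and 262 against 178 and 189 CPM in spinous-like cells, but was not called (adjusted p = 0.125). For Numb, a further gene of the list that was named for this difference, the effect was higher in spinous-like than in basal-like cells by 0.55 (SE 0.15, adjusted p = 0.0481).

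Without cluster 7, 3 of the 6 calls in hair follicle-like cells held, those of Neurl1b, Cdkn1a and Dlk2. With the replicate number as a block, 3 genes were called in basal-like cells (Ascl2, Cdkn1a and Dlk2) and 0 in early suprabasal-like and spinous-like cells. Leaving out either Ctrl library left 2 calls in basal-like cells, 3 in hair follicle-like cells and 0 in the suprabasal classes. With 2 libraries a genotype, an exact permutation test of a single value cannot go under p = 0.333, so every call rests on the spread that edgeR pools across genes.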

How the data were processed

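Single-cell libraries of 2 Ctrl and 2 TKO embryos were analysed from the raw UMI counts per gene and barcode that the authors deposited, made with Cell Ranger on GRCm39 per the submitters' processing notes. The version differs between the study's methods and the file headers and is not given here. The members and gene lists were chosen with earlier results of these data known. Barcodes with at least 2000 genes and at most 10% mitochondrial UMIs were kept. Likely doublets were left out at an expected rate of 0.8% per 1000 barcodes, since the caller's own threshold marked 1 to 31 cells per library. Cells were clustered with scanpy 1.11.5 (2000 variable genes, 30 components, 20 neighbours, Leiden resolution 1), without genes that differed between genotypes and without pathway genes, and clusters were named from marker lists at thresholds set after the clusters had been seen. Cells with immune, fibroblast, melanocyte, or pericyte and muscle markers (1572) were left out. UMIs were summed per class and library and tested with edgeR 4.0.16 (quasi-likelihood, TMM) in R 4.3.3, with Benjamini-Hochberg adjustment, and with DESeq2 1.42.0 as an alternative. The code of the fits was also run on simulated counts, and no support for a single call is drawn from that run. Named genes were all members, each other pathway gene called in at least 1 class, the 3 genes most like each of Notch3, Jag2 and Hes1, and the targeted genes; exceptions are stated, and 1 gene of the list is not reported here. Intervals are exact Clopper-Pearson 95% intervals, and the limit beside a count of 0 is 3 counts of the total.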

Additional observations from a re-analysis of the deposited data

Results flagged for a closer look

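For the following genes the genotype effect differed between classes in the class-by-genotype test (edgeR, Benjamini-Hochberg adjusted p under 0.05). Notch3 had a higher effect in hair follicle-like than in basal-like cells, by 2.07 on the log2 scale, and Neurl1b a lower one, by a log2 value of -1.77. In spinous-like against basal-like cells the effect was higher for Jag1 by 0.46, for Numb by 0.55 and for Maml3 by 0.44, and lower for Maml2 by a log2 value of -0.57. Of 15 alternatives each, the call was made in 10 for Notch3, in 6 for Neurl1b (range -2.17 to -0.13), in 4 for Jag1, in 6 for Numb, in 9 for Maml3 and in 12 for Maml2. Jag1 was not called at a Leiden resolution of 2 (adjusted p = 0.117), with changed and pathway genes kept in the clustering (0.150) or without the expression filter (0.209).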

How the results depend on the processing

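Of 881 recomputed log2 changes of the 10 members, 842 stayed on the same side of the threshold without reversing a call, 24 lost the call with the same sign, 2 lost it with the other sign and 13 gained it. In 110 cases a change that was called in neither fit had the other sign, among them that of Notch3 in basal-like cells, 0.485 with uncorrected components. The 2 that lost the call with the other sign were those of Notch3 in hair follicle-like against basal-like cells, -0.36 (adjusted p = 0.747) with uncorrected components and -0.14 (adjusted p = 0.986) with changed and pathway genes kept in the clustering. The cause of these changes was not tested.

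Members called in hair follicle-like cells (2) became 1 without an expression filter and 0 with uncorrected components, at a Leiden resolution of 2, with changed and pathway genes kept in the clustering or without cluster 7, and 1 to 2 when single libraries were left out. In spinous-like cells 0 became 1 without the filter and with the crossed pairing, and 0 to 1 when single libraries were left out, Notch1 being called without TKO 2 (0.66, adjusted p = 0.0286). For the effect in spinous-like against basal-like cells, 1 became 2 with DESeq2, without the filter or without cluster 7, 0 at 5000 UMIs per cell, with doublets kept, with uncorrected components or at a Leiden resolution of 0.5, and 0 to 1 when single libraries were left out. For hair follicle-like against basal-like cells, 1 became 2 without the filter or at 5000 UMIs per cell, 0 with uncorrected components, at a Leiden resolution of 2, with changed and pathway genes kept or without cluster 7, and 0 to 1 when single libraries were left out.

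Other pathway genes called in basal-like cells (5) became 8 with DESeq2, 9 without the filter or with uncorrected components, 3 with the replicate block or at 5000 UMIs per cell, 10 with the crossed pairing, and 2 to 11 when single libraries were left out. In early suprabasal-like cells 1 became 4 without the filter, 5 with the crossed pairing, 2 at a Leiden resolution of 2, 0 with the replicate block, at 5000 UMIs per cell, with doublets kept or with changed and pathway genes kept, and 0 to 1 when single libraries were left out. In spinous-like cells 1 became 2 with DESeq2, 4 without the filter or with the crossed pairing, 0 with the replicate block or at a Leiden resolution of 0.5, and 0 to 2 when single libraries were left out. In hair follicle-like cells 6 became 0 with uncorrected components, 3 without cluster 7, and 3 to 7 when single libraries were left out.

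Over all genes, calls in basal-like, early suprabasal-like and spinous-like cells (2100, 357 and 279) became 3672, 1281 and 1772 without the filter and 3421, 1177 and 1388 with the crossed pairing, and the replicate block left 113 and 117 in the suprabasal classes. At 5000 UMIs per cell basal-like, early suprabasal-like and hair follicle-like cells had 1210, 105 and 1006. Hair follicle-like cells (2362) had 773 with uncorrected components, and spinous-like cells 673 with DESeq2 and 166 at a Leiden resolution of 0.5. The early suprabasal-like cells had 161 with changed and pathway genes kept. For the between-class effects (3, 1114 and 173) the counts were 309, 2115 and 773 without the filter, 73 with DESeq2, 12 with doublets kept and 1 at a Leiden resolution of 2 or with changed and pathway genes kept for early suprabasal-like cells, 8 and 603 at 5000 UMIs per cell for early suprabasal-like and spinous-like cells, and 476 at a Leiden resolution of 0.5 for spinous-like cells. Leaving out single libraries gave 544 to 3217 calls in basal-like and 175 to 1143 in spinous-like cells.

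Deviations of same-numbered libraries correlated at -0.238 to -0.135, so the numbers do not pair the embryos, and the crossed pairing was added for that reason after the data had been seen. Uncorrected components and a Leiden resolution of 0.5 gave no early suprabasal-like class, no block was fitted for the between-class effects, and a genotype left with 1 library is assumed to vary like the other.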

Other observations

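A small cluster that the comparisons left out met the Merkel marker lists through its 55 Ctrl cells. Pooled over both libraries, these had Ccer2 at 15750 CPM, Krt8 at 1910 CPM, Atoh1 at 450 CPM and Isl1 at 614 CPM, whereas its 23 TKO cells had 0 UMIs of Ccer2, Atoh1 and Isl1. Of the other markers the TKO cells had Krt18 at 81.2 CPM (65 UMIs), Krt8 at 51.2 CPM (41 UMIs), Rab3c at 8.74 CPM, Sox2 at 6.24 CPM and Krt20 at 1.25 CPM, against 610, 1910, 543, 448 and 91.1 CPM in the Ctrl cells. Notch1 was at 33.3 CPM (30 UMIs) and Hes1 at 14.4 CPM (13 UMIs) in the Ctrl cells, and at 257 CPM (206 UMIs) and 110 CPM (88 UMIs) in the TKO cells. Since the marker levels differ between the Ctrl and TKO cells, no genotype difference of the members is read from them.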
